A study of Mus musculus with 2 samples.

Results

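The genes described here are 9 immediate early transcription factor genes and close companions: the FOS family members Fos and Fosb, the JUN family members Jun, Junb and Jund, the zinc finger factors Egr1 and Egr2, the short-lived nuclear regulator Ier2 and the stress-responsive factor Atf3. They were picked by symbol out of the 32285 genes in the count matrices of an embryonic mouse single-cell RNA-seq experiment, and 27181 of those genes had at least 1 count in the cells used. All 9 were detected in both libraries. The rule names them by symbol and uses no measured value, although earlier results of these data were known when they were chosen.

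Immediate early genes are transcribed within minutes of a stimulus, from promoters that need no new protein synthesis, and most of their transcripts and proteins are short-lived. FOS and JUN proteins pair to form the dimeric factor AP-1, EGR proteins bind GC-rich sites, and ATF3 is a related bZIP protein induced by many kinds of stress. Growth factor signalling through the MAP kinases, mechanical strain, heat and the enzymatic dissociation of a tissue can all induce these genes, so in dissociated cells one transcript count cannot separate a signal in the embryo from the handling of the tissue.

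The study expressed an activated form of the p110α lipid kinase, Pik3ca H1047R, in cells that had switched on Isl1-Cre, a driver active in the cardiopharyngeal mesoderm and in other Isl1 lineages, and asked how these cells change in vascular malformations of the head and neck. The control library came from Isl1-Cre;R26R-eYFP embryos and the mutant library from Isl1-Cre;R26R-eYFP;Pik3caH1047R embryos, both at E13.5, so both carried the Cre driver and the eYFP reporter. Each library was 1 pool of 3 embryos: tissue above the liver, labelled pharyngeal arch, was minced, digested with collagenase and DNase in a warm bath, and sorted for eYFP+ viable cells. The mutation could act in every Cre-labelled lineage, not in endothelium alone, and neighbouring cells without Cre were not collected.

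Values are unique molecular identifiers (UMIs, 1 per captured transcript) from 10x 5′ libraries. After the filter of more than 2000 and fewer than 9000 genes and under 10% mitochondrial UMIs, 2783 control and 3489 mutant cells held 63153191 and 69717583 UMIs, with medians of 20412 and 16839 UMIs per cell. The pools differed in sex: 95.5% of control cells had Xist and no Y-linked UMIs (female-like), against 33.6% of mutant cells, and 53.3% of mutant cells were male-like. The libraries shared 28 deposited barcodes, carried by 19 control and 20 mutant cells that passed the filter. Levels are CPM (UMIs of a gene per 1000000 UMIs, both summed over the cells of a class), and the comparison is the log2 ratio of mutant over control with a 95% interval. With 1 library per genotype there is no replicate and no test, the intervals cover counting error only, and genotype cannot be told apart from the pool of embryos, its sex or the handling of each sample. A gene was called past the fold where the ratio was over 1.5 in either direction and the class held at least 50 of its UMIs. Cells were named by cluster from marker lists, with 115 genes, these 9 among them, left out of the clustering. The 7 classes compared were called EC-like (endothelial), mesenchyme-like, branchial muscle-like, neuron-like, epithelium-like, cardiomyocyte-like and mesothelium-like. Markers of liver cells led 46 mutant cells and no control cell, although the dissection was above the liver. Pik3ca was at 34.8 and 36.7 CPM in control and mutant cells, a level that does not separate the transgene from the resident gene and so does not check the labels.

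For 5 of the genes 1 stretch of promoter that holds such motifs is printed, since the genes are read together in what follows. RefSeq (GRCm38.p6) gave promoter windows for 7 of the 9 genes, not for Egr1 or Ier2, and the 250 bases before the start site were searched on both strands. The 6 motifs used were the CRE core TGACG, the AP-1 site TGANTCA, the ATF/CRE site TGACNTCA (which overlaps the CRE core when its middle base is G), the TATA box TATAAA, the EGR site GCGNGGGCG and the CArG box bound by SRF. Capitals mark the matches, and each sequence runs 5′ to 3′ towards the start site.
Fos: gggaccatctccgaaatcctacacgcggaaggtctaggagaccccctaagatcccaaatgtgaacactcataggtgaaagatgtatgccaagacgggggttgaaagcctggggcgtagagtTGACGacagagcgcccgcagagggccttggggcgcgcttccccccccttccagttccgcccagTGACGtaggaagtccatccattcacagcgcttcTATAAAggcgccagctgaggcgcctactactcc
Fosb: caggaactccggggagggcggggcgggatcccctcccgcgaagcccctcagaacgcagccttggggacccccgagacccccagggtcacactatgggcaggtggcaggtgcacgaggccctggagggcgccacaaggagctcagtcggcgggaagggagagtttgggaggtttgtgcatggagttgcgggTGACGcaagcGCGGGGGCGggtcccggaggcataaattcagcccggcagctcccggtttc
Jun: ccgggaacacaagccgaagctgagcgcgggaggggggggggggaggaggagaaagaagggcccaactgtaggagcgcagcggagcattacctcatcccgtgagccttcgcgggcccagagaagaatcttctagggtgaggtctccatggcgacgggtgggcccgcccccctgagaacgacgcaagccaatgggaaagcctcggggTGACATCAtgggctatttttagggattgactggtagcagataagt
Junb: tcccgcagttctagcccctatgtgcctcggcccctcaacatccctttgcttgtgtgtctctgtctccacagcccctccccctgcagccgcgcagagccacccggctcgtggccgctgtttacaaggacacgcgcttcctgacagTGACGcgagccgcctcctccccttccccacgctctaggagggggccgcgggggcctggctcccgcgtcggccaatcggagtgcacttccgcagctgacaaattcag
Egr2: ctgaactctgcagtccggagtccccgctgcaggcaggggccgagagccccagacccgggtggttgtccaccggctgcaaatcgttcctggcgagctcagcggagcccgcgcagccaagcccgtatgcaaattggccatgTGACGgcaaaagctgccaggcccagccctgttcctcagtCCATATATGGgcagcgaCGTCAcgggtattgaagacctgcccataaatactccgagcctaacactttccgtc
The Fos stretch is at chr12:85473640-85473889 on the plus strand and holds 2 CRE cores and a TATA box. The Fosb stretch, at chr7:19310046-19310295 on the minus strand, holds 1 CRE core and 1 EGR site close upstream of the start. The Jun stretch, at chr4:95052223-95052472 on the minus strand, holds 1 ATF/CRE site and no other of the motifs. The Junb stretch, at chr8:84978749-84978998 on the minus strand, holds 1 CRE core. Of 5 RefSeq windows of Egr2, the one shown, at chr10:67537619-67537868 on the plus strand, holds 2 CRE cores around a CArG box, and its RefSeq start lies 2394 bases downstream of the start in the gene annotation. The Egr2 window nearest that start, 24 bases away, held none of the motifs. Atf3 had 1 CRE core within 7 bases of its RefSeq start, which lies 34706 bases from the start in the gene annotation. The window given for Jund, which ends 1210 bases before the start in the gene annotation, held none of the motifs. Of all 32851 promoter windows, 17.8% held a CRE core, 6.75% an AP-1 site, 7.49% an ATF/CRE site, 12.4% the TATA box, 4.70% the EGR site and 1.47% the CArG box. These matches describe the letters of the windows and were not set against the measurements.

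In GENCODE M21 (GRCm38), Fos covers chr12:85473890-85477273 with 3 to 4 exons per transcript, and Fosb covers chr7:19302696-19310051. Jun (chr4:95049034-95052222), Jund (chr8:70698949-70700616) and Ier2 (chr8:84661331-84662852) are annotated with 1 exon. Junb lies at chr8:84974484-84978718, Egr2 at chr10:67535475-67542188 and Atf3, the longest of those given here, at chr1:191170296-191218039. Transcripts annotated on the opposite strand overlap Jun (Junos, 689 bases), Jund (Gm11175, 919 bases), Junb (Prdx2, 351 bases) and Atf3 (Gm24748, 108 bases). Whether the counting used strand is not given in the sources used here, so reads in these stretches cannot be assigned with certainty.

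Across the classes of the control library, 8 of the 9 genes, all but Jund, spanned at least 5.24-fold between the highest and the lowest class. Fos was at 818 CPM in mesenchyme-like, 617 in mesothelium-like, 413 in epithelium-like, 354 in neuron-like, 336 in EC-like, 212 in branchial muscle-like and 117 in cardiomyocyte-like control cells. Of neighbours in that order, only the intervals of neuron-like and EC-like cells overlapped. In the mutant library the order differed, with Fos at 584 in mesenchyme-like, 413 in epithelium-like, 400 in branchial muscle-like, 355 in neuron-like, 288 in EC-like, 237 in mesothelium-like and 70.7 in cardiomyocyte-like cells. Branchial muscle-like cells thus held the sixth place in the control and the third in the mutant library, where their interval overlapped that of epithelium-like cells, and mesothelium-like cells held the second place and the sixth. Classes of 1 library went through the same digestion and sort.

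**Figure D1:**
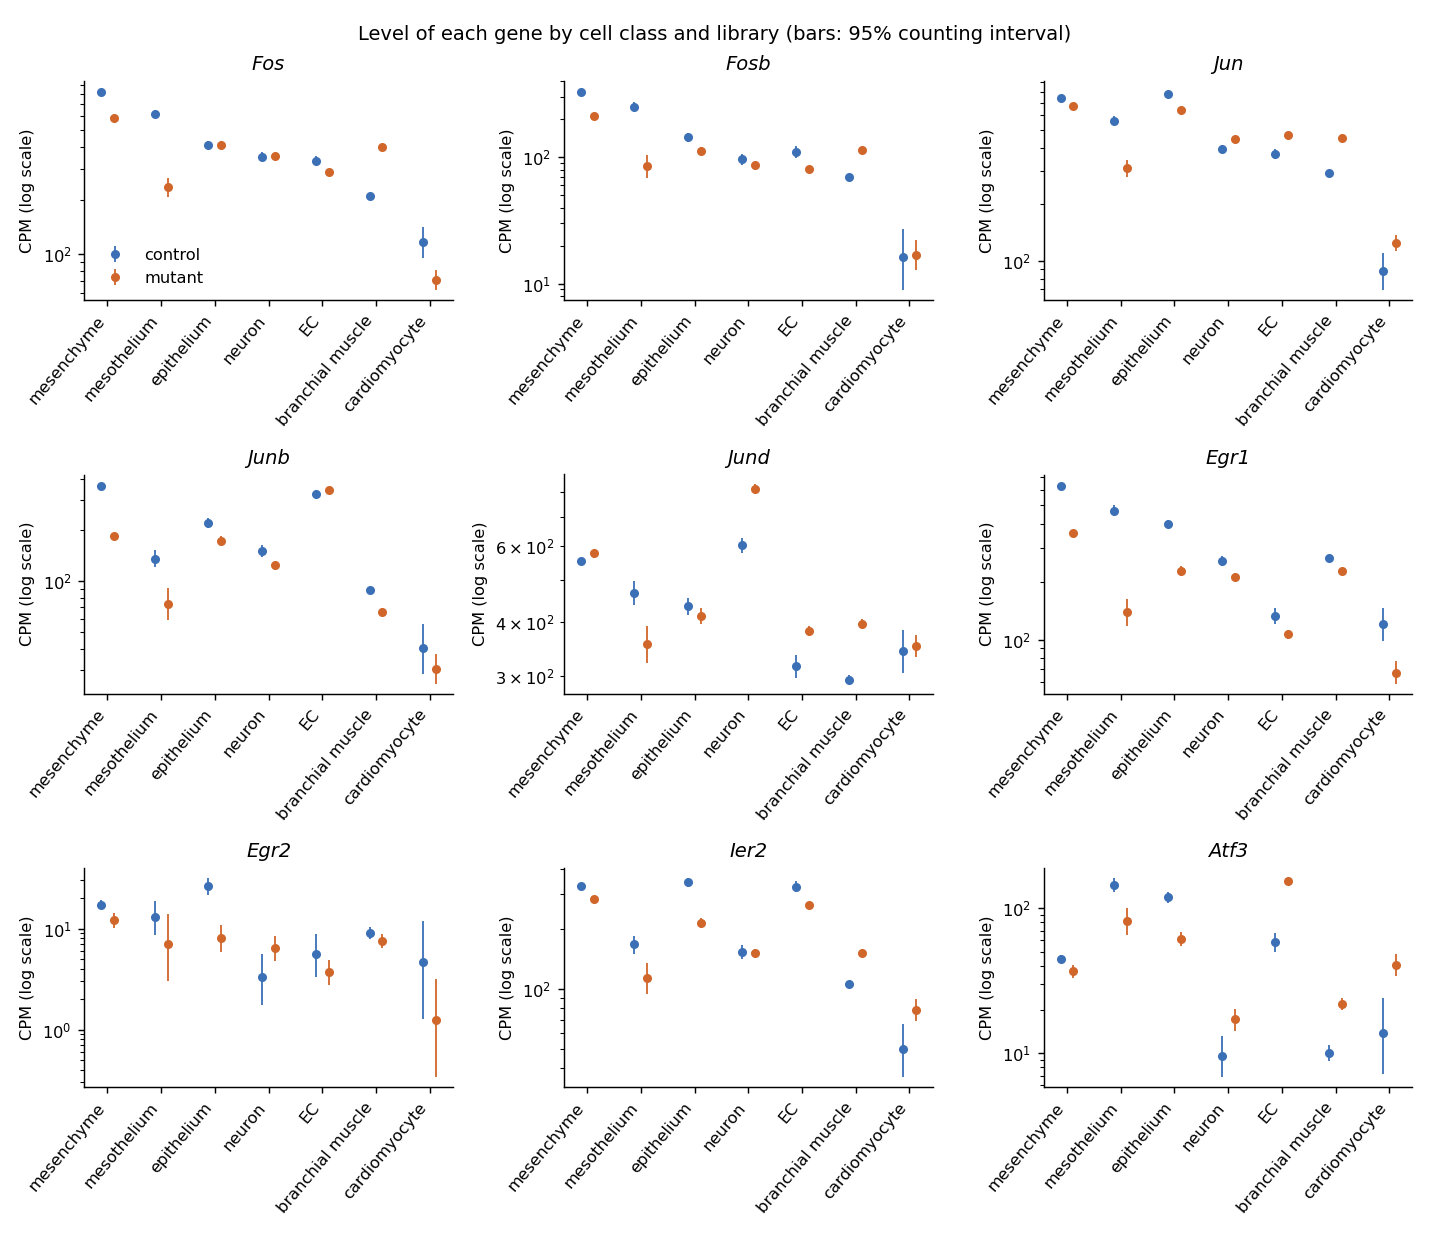
CPM (log scale) of each gene in 7 cell classes, named without the ending -like, with control in blue, mutant in orange and 95% counting intervals as bars. Cardiomyocyte-like cells are lowest for 6 genes in both libraries, Atf3 in EC-like cells goes from 58.1 to 155, and Jund spans the narrowest range of the 9.

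The other genes kept partly different orders. Jun was highest in epithelium-like (782) and mesenchyme-like control cells (745), which overlapped within their intervals. Junb, in contrast to the other JUN genes, was high in EC-like cells: 325 CPM in the control library, second to mesenchyme-like cells at 364, and 348 in the mutant library, first before mesenchyme-like cells at 185. Jund, the JUN gene with the least dependence on stimuli, was led by neuron-like cells in both libraries (603 and 815) and spanned 2.05-fold over the control classes and 2.32-fold over the mutant ones. Egr1 and Fosb followed the order of Fos at the top, with mesenchyme-like cells at 629 and 327 in the control library. Egr2, a factor of neural crest and Schwann cell development, was scarce throughout, between 3.29 and 26.3 in the control and between 1.23 and 12.1 in the mutant library. Atf3 was highest in mesothelium-like control cells (145), which overlapped with epithelium-like cells (119), and in the mutant library in EC-like cells (155).

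Cells outside the 7 classes held higher levels of several of these genes. Cluster 6, with 173 control and 176 mutant cells, was led by myeloid and erythroid genes together (Ccl4, Mpo, Hbb-bs, Tyrobp, Cxcl2) and was left unnamed. Its control cells had the highest Junb (1172), Atf3 (577) and Egr2 (73.5 CPM) among the classes compared, and Fos was at 1022. Neural crest-like cells (54 control, 25 mutant) had Fos at 1136 and 592 and Jun at 1347 and 1275. Their 90th percentile of Egr2 per 10000 UMIs of a cell was 1.56 in the control and 0.88 in the mutant library. Over all cells that percentile was 0.59 and 0. The 46 hepatoblast-like cells of the mutant library had Fos at 1103, Jun at 1259 and Atf3 at 538 CPM, and have no control counterpart.

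Between the libraries, the direction of the 9 genes depended on the class. Over all cells, none of the 9 was higher past 1.5-fold in the mutant library, against 13.4% of 18364 genes, and 2 were lower, against 12.3%. Those were Egr1 and Egr2. The median log2 ratio of the 9 genes was -0.34, beside -0.02 for all genes. Fos went from 517 to 407 CPM (log2 ratio -0.34, interval -0.37 to -0.32), Junb from 285 to 193 (-0.56, interval -0.59 to -0.53) and Egr1 from 409 to 217 (-0.91, interval -0.94 to -0.88). Jun was level at 527 and 528, and Jund was higher at 421 and 483 (0.20, interval 0.17 to 0.22). This pooled value mixes classes whose shares differ between the libraries, among them 147 control and 699 mutant EC-like cells, so the classes are given one by one.

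**Figure D2:**
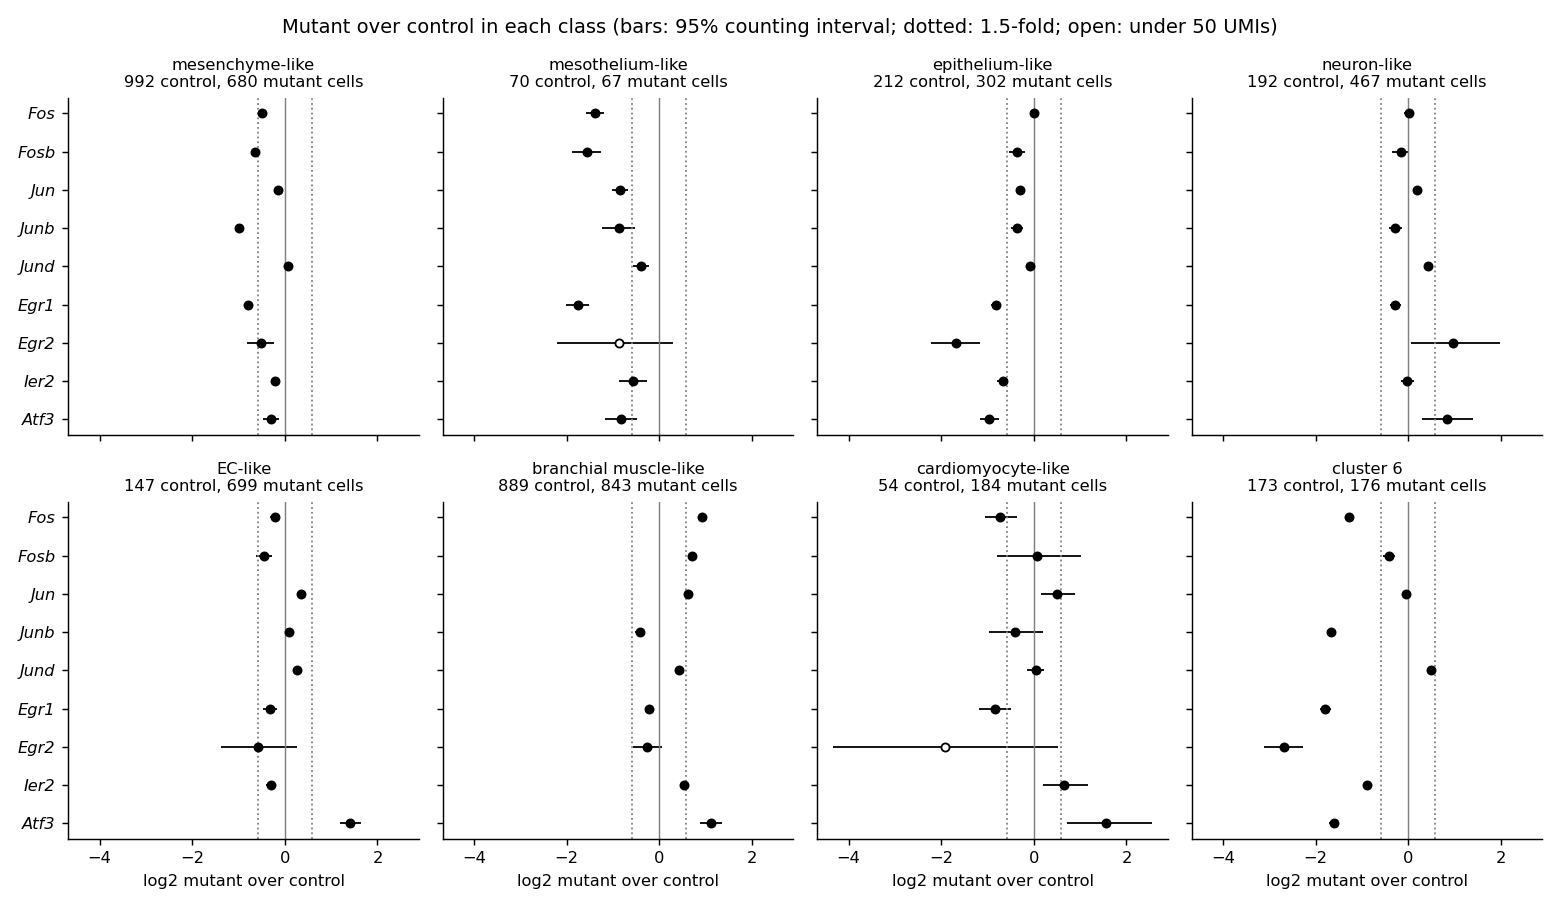
Log2 ratio of mutant over control for each of the 9 genes in 7 classes and cluster 6, with 95% counting intervals, a solid line at 0 and dotted lines at 1.5-fold. All 9 points lie at or left of 0 in mesothelium-like and epithelium-like cells, and 6 lie right of 0 in branchial muscle-like cells.

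In EC-like cells, the class at the centre of the study, 1 gene was higher past the fold, against 11.7% of 12041 genes, and 1 was lower, against 12.8%. The higher one was Atf3, at 58.1 CPM in the control and 155 in the mutant library (log2 ratio 1.41, interval 1.20 to 1.64). The lower one, Egr2, rested on 18 and 52 UMIs (-0.59) and its interval, -1.39 to 0.27, includes 0. Fos was at 336 and 288 (-0.22, interval -0.32 to -0.12), Fosb at 110 and 80.5 (-0.45, interval -0.63 to -0.28) and Egr1 at 133 and 106 (-0.32, interval -0.48 to -0.17). The JUN genes lay on the other side of 0: Jun at 372 and 472 (0.34), Jund at 316 and 380 (0.27) and Junb at 325 and 348 (0.10, interval -0.00 to 0.19). Ier2 was at 327 and 266 (-0.30). The summed UMIs of the 9 genes differed little, with a log2 ratio of 0.08, so the median of -0.22 and the sum differ in sign. All genes of the class had a median of -0.08.

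Branchial muscle-like cells had the opposite pattern to the whole. Here 4 of the 9 genes, Fos, Fosb, Jun and Atf3, were higher past the fold in the mutant library, against 13.3% of 13461 genes, and none was lower, against 7.99%. Fos was at 212 and 400 CPM (0.91, interval 0.86 to 0.96), Fosb at 70.0 and 115 (0.71, interval 0.62 to 0.81) and Jun at 294 and 452 (0.62, interval 0.57 to 0.66). Atf3, a scarce transcript in this class, was at 10.0 and 21.9 (1.12, interval 0.89 to 1.36). Ier2, at 106 and 152 (0.53), and Jund, at 294 and 396 (0.43), were short of the fold. Junb (88.3 and 65.6, -0.43) and Egr1 (266 and 226, -0.23) were lower within the same cells, as they were over all cells. Egr2 was lower too, at 9.02 and 7.54 (-0.26), with an interval of -0.57 to 0.05. The class held 3 clusters. In cluster 1, with Msc, Myf5 and Pax7 and 547 control and 533 mutant cells, Fos was at 1.06. In cluster 7, led by Pax7, it was at 0.55, and in cluster 8, led by Myh3 and Mymk of differentiating muscle, at 0.34. The intervals of Junb, Egr1 and Egr2 included 0 in cluster 1 (-0.02, -0.06 and 0.22). In the same order these genes were lower in cluster 7 (-1.33, -0.87 and -2.14) and cluster 8 (-1.35, -0.56 and -1.61).

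Mesenchyme-like cells, which led the 7 control classes for Fos, Fosb, Junb and Egr1, were lower in the mutant library for 8 of the 9 genes. Past the fold were 3, Fosb, Junb and Egr1, against 8.61% of 13918 genes, and none was higher, against 10.9%. Fos was at 818 and 584 CPM (-0.49, interval -0.53 to -0.44), Fosb at 327 and 211 (-0.63) and Junb at 364 and 185 (-0.98, interval -1.05 to -0.91). Egr1 was at 629 and 360 (-0.81, interval -0.86 to -0.75). Jun was nearly level at 745 and 673 (-0.15), and Jund was at 553 and 577 (0.06). The class held a cluster of unequal size, cluster 4, led by Adh1, Wnt2 and Tbx4, with 366 control and 132 mutant cells. Within it Junb was at -1.04 and Fos at -0.49, and within cluster 0, with 588 and 523 cells, Junb was at -0.97 and Fos at -0.65. Jund went opposite ways in the same clusters, at 0.63 (interval 0.55 to 0.71) in cluster 4 and -0.28 (interval -0.33 to -0.22) in cluster 0. Atf3 was at 0.31 and -0.67 and Egr2 at 0.09 and -0.85, with the intervals of both including 0 in cluster 4. The class also held the small cluster 13, led by Myh11 and Actg2 (38 and 25 cells). There Junb was at -2.32, Egr1 at -1.97, Ier2 at -1.27, Jun and Fos at -0.85 and Jund at -0.33. The intervals of Fosb (-0.33), Egr2 (-1.75) and Atf3 (-0.10) included 0 in cluster 13.

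Mesothelium-like cells had lower values in the mutant library for all 9 genes, although the interval of Egr2 (-2.22 to 0.29) included 0. Epithelium-like cells had lower values for all but Fos, although the interval of Jund (-0.17 to 0.02) included 0. In mesothelium-like cells (70 control and 67 mutant), 6 of the 8 genes with enough UMIs were past the fold, against 12.9% of 8480 genes, and none was higher, against 21.1%. Egr1 was at 468 and 139 CPM (-1.76, interval -2.01 to -1.51), Fosb at 253 and 85.1 (-1.57, interval -1.90 to -1.26) and Fos at 617 and 237 (-1.38, interval -1.58 to -1.19). The median UMIs per cell of this class were 28114 in the control and 14430 in the mutant library, and with every cell thinned to 5000 UMIs the median log2 ratio of the genes was -1.02, beside -0.88 unthinned. In epithelium-like cells (212 and 302) 4 genes were lower past the fold, against 9.27% of 11679 genes, and none higher, against 8.47%. They were Egr2 (26.3 and 8.15, -1.69), Atf3 (119 and 61.1, -0.97), Egr1 (401 and 227, -0.82) and Ier2 (344 and 215, -0.68). Fos was the same in both libraries at 413 (interval of the log2 ratio -0.09 to 0.09).

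Neuron-like and cardiomyocyte-like cells were mixed. In neuron-like cells (192 and 467) the 2 genes past the fold were both higher, against 5.63% of 12126 genes, and none was lower, against 15.3%. They were low genes, Egr2 with 13 and 50 UMIs (0.97, interval 0.06 to 1.97) and Atf3 with 38 and 133 UMIs (0.83, interval 0.30 to 1.39). Fos was at 354 and 355, and Jund at 603 and 815 (0.43, interval 0.37 to 0.50). Cluster 10, led by Neurod1, Scn10a and Scn9a (64 and 132 cells), had Fos at -1.20 and Atf3 at 2.45. That Atf3 ratio rested on 6 and 55 UMIs, with an interval of 1.24 to 3.96. Cluster 5 (128 and 335 cells), with Cartpt, Igfbpl1, Dbh, Robo3 and Gad2 among its leading genes, had Fos at 0.26 and Atf3 at 0.14. Its interval for Atf3 was -0.47 to 0.78. At a finer resolution, neuron-like cells led by Dbh and Cartpt were 26 control and 11 mutant cells. Those led by Igfbpl1 and Robo3 were 102 and 325. In cardiomyocyte-like cells (54 and 184) 2 of 8 genes were higher, against 11.8% of 7145 genes, and 2 lower, against 16%. Atf3 (13.9 and 40.9, 1.56) and Ier2 (49.6 and 78.4, 0.66) were higher, and Fos (117 and 70.7, -0.72) and Egr1 (120 and 67.4, -0.83) were lower. Atf3 rested on 12 and 133 UMIs (interval 0.71 to 2.55) and Ier2 on 43 and 255 (interval 0.19 to 1.16). The cells of this class that passed the filter had a median mitochondrial share of 0.0502% and 0.0487%, against 1.35% to 2.07% in the other classes compared.

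Cluster 6, outside the named classes, showed the lowest ratios of Egr2. There 6 of the 9 genes were lower past the fold, against 16.7% of 10609 genes, and none higher, against 8.6%. Egr2 was at 73.5 and 11.4 CPM (-2.69, interval -3.12 to -2.28), Egr1 at 490 and 141 (-1.79), Junb at 1172 and 366 (-1.68), Atf3 at 577 and 190 (-1.60) and Fos at 1022 and 418 (-1.29). Jund was higher at 395 and 557 (0.50, interval 0.41 to 0.58), and Jun was level (-0.05, interval -0.12 to 0.02). The mix of cells in this cluster differed between the libraries. At a finer resolution its cells fell into an erythroid-like cluster (88 control and 139 mutant cells) and a macrophage-like one (85 and 37), a split made after seeing the data. Within these, in that order, Junb was at -1.54 and -1.78, Egr1 at -1.27 and -2.18, Egr2 at -1.52 and -2.77 and Fos at -0.72 and -1.38, all still past the fold. Jund was at 0.22 and 0.87, past the fold upward in the macrophage-like cells (interval 0.71 to 1.03). Jun was at 0.08 and 0.25, with an interval of 0.14 to 0.36 in the macrophage-like cells. The erythroid-like cluster had Cpa3, Mpo and Elane beside globin genes among its leading genes. Atf3 was at 106 and 93.1 CPM in the erythroid-like cells (-0.19, interval -0.42 to 0.05) and at 1092 and 554 in the macrophage-like cells (-0.98), so the difference of -1.60 over the whole cluster was larger than in either of them.

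Read by gene, Egr1, which maps to chromosome 18 at positions 34859823 to 34864984, was lower in the mutant library in all 7 classes, from -0.23 in branchial muscle-like to -1.76 in mesothelium-like cells. With female-like cells alone it turned to 0.28 in EC-like and 0.17 in neuron-like cells. Atf3 was split by class: higher past the fold in EC-like, branchial muscle-like, cardiomyocyte-like and neuron-like cells, lower past it in epithelium-like and mesothelium-like cells and in the macrophage-like cells of cluster 6, and lower within it in mesenchyme-like cells (44.9 and 36.7, -0.29). Jund, the steadiest gene, stayed between -0.39 and 0.43 in the 7 classes.

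The sex of the cells moved with these values in EC-like cells. Since almost every control cell was female-like, the like-for-like comparison was made over 132 control and 233 mutant female-like cells. There Fos was at 350 CPM in the control and 460 in the mutant library (0.40), Egr1 at 137 and 167 (0.28), Fosb at 110 and 134 (0.27) and Junb at 330 and 472 (0.51), so that these genes, the first 3 of which were lower in the pooled class, were higher. Atf3 was at 60.0 and 195 (1.70), higher as in the pooled class. In the 381 male-like mutant cells Fos was at 191, Fosb at 48.5, Egr1 at 71.2 and Atf3 at 135. Within the mutant library, male-like over female-like EC-like cells therefore gave -1.27 for Fos, -1.46 for Fosb and -1.23 for Egr1, larger than the pooled difference between genotypes. Male-like and female-like cells of a pool come from different embryos, so the sex and the embryo cannot be told apart.

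**Figure D3:**
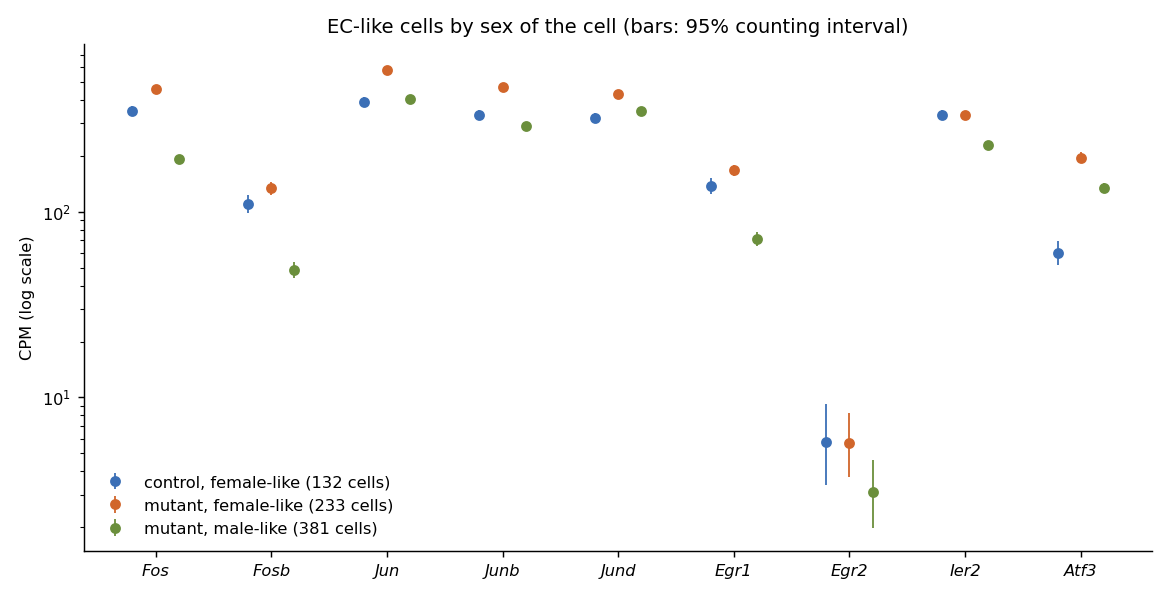
CPM (log scale) of the 9 genes in EC-like cells, split by the sex of the cell, with 95% counting intervals. Mutant female-like cells (orange) lie above control female-like cells (blue) for Fos (460 against 350) and Junb (472 against 330), mutant male-like cells (green) lie below both for Fos (191), and for Atf3 both mutant sets lie above the control.

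The same split was wide in neuron-like cells, with male-like over female-like mutant cells at -0.63 for the summed UMIs of the 9 genes. It was -0.05 in mesenchyme-like, -0.27 in branchial muscle-like, -0.32 in epithelium-like and -0.55 in mesothelium-like cells. In cardiomyocyte-like cells it was -1.20, on 12 female-like cells. With female-like cells alone, the summed UMIs gave log2 ratios of 0.59 in branchial muscle-like, 0.45 in EC-like and 0.39 in neuron-like cells, and -0.23 in epithelium-like, -0.36 in mesenchyme-like and -0.65 in mesothelium-like cells. The difference in direction between muscle and mesenchyme was thus present in the female-like cells as well.

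Other genes of the same pathways were taken from lists, and are given as counts past the fold. The companions of the 9 in the early response (other AP-1, EGR, NR4A and KLF factors) had 6 higher and 1 lower of 16 in EC-like cells, against 11.7% and 12.8% of all genes. They had 2 and 8 of 18 in mesenchyme-like (10.9% and 8.61% of all genes), 7 and 1 of 17 in branchial muscle-like (13.3% and 7.99%) and 1 and 11 of 17 in cluster 6 (8.6% and 16.7%). In EC-like cells Jdp2, a bZIP repressor of AP-1, was at 9.05 and 35.3 CPM (1.97) and Maff, a small MAF factor, at 16.2 and 47.4 (1.55). Nr4a3, a nuclear orphan receptor, was at 9.05 and 3.23 (-1.49), and Csrnp1 at 26.5 and 18.5 (-0.52). Feedback and effector genes, which encode phosphatases, mRNA decay factors and secreted proteins, had 7 higher and none lower of 19 in EC-like cells, with Ccn2, a secreted matrix protein, at 70.9 and 236 (1.74), Ier3 at 79.6 and 194 (1.28) and Dusp1, a MAP kinase phosphatase, at 217 and 167 (-0.38). Their median was 0.25 in EC-like and 0.40 in branchial muscle-like cells, and -1.34 in cluster 6, where 14 of 17 were lower and 1 was higher.

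Feedback genes of the ERK cascade did not share one direction in EC-like cells, with 3 higher and 4 lower of 12. Phlda1 was at 57.7 and 147 CPM (1.35) and Spred3 rested on 12 and 122 UMIs, while Etv4 was at 21.2 and 8.12 (-1.39) and Spry1, an inhibitor of receptor tyrosine kinase signalling, at 53.1 and 26.7 (-0.99). Their median was -0.24, beside -0.08 for all genes. The kinases themselves and the factors that switch on immediate early promoters were past the fold in few cases, and for the factors about as often as genes in general (11.7% higher and 12.8% lower). Of 10 MAP kinase genes 1, Map2k1 (60.6 and 95.7, 0.66), was past the fold in EC-like cells, and of 11 SRF, ternary complex and CREB factors 1 was higher, Crem (37.8 and 59.9, 0.67), and 2 were lower, Mrtfb, a cofactor of SRF (116 and 63.7, -0.86), and Atf7 (81.8 and 54.5, -0.59).

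Stress genes of other kinds followed the 9 genes in some classes and not in others. Heat shock genes, which encode chaperones and are also induced by dissociation, had 8 higher and none lower of 13 in EC-like cells, against 11.7% and 12.8% of all genes, with a median of 0.80. The inducible Hspa1a was at 19.98 and 527 CPM (4.72, interval 4.37 to 5.10) and Hspa1b at 14.0 and 481 (5.10, interval 4.67 to 5.55), whereas the constitutive Hspa8 was at 731 and 780 (0.09) and Dnaja1 at 433 and 416 (-0.06). The higher Hspa1a and Hspa1b were not particular to EC-like cells, with log2 ratios of 3.26 and 3.67 over all cells. In the same order they were at 4.38 and 4.29 in epithelium-like and 4.16 and 4.51 in branchial muscle-like cells. Neuron-like cells had 4.35 and 3.81, mesenchyme-like cells 2.14 and 2.55 and mesothelium-like cells 1.13 and 1.81. Summed over the 13 heat shock genes in all cells that passed the filter, not in EC-like cells alone, the level was 7146 CPM in control and 8949 in mutant cells. In mesenchyme-like cells their median was 0.09 and that of the 9 genes -0.49, and in cluster 6 it was 1.12 against -1.29. In branchial muscle-like cells the medians of the heat shock (0.34) and ATF4 genes (0.64) were above 0 like that of the 9 (0.53). In mesothelium-like cells the ATF4 genes were lower (-0.53) like the 9, while the heat shock median was 0.20. In epithelium-like cells the heat shock (0.17) and ATF4 medians (0.43) were above 0 and that of the 9 was -0.36. Genes of the ATF4 stress response, a pathway that also induces Atf3, had 7 higher and none lower of 10 in EC-like cells, with Trib3 at 3.12 and 27.9 (3.16) and Chac1 on 13 and 190 UMIs (1.75). The metallothioneins Mt1 (6.24 and 61.2) and Mt2 (2 and 167 UMIs) were higher too. The part of handling in any of these values was not tested.

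**Figure D4:**
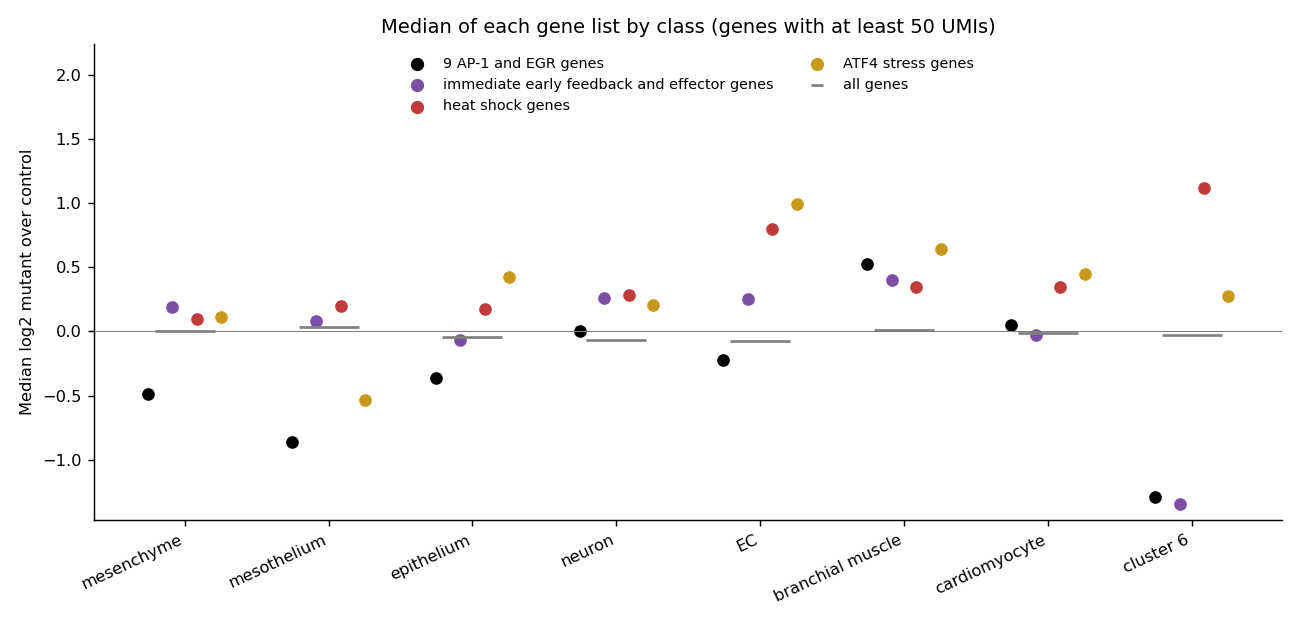
Median log2 ratio of mutant over control for the 9 genes (black), immediate early feedback genes (purple), heat shock genes (red) and ATF4 stress genes (yellow), over genes with at least 50 UMIs, with the median of all genes as a grey bar. In mesenchyme-like, EC-like, epithelium-like and mesothelium-like cells and in cluster 6 the black point lies below 0 and the red point above it. In branchial muscle-like cells all 4 lie above 0.

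The levels were uneven from cell to cell, and the shape of the spread differed between classes. The summed UMIs of the 9 genes per 10000 UMIs of a cell had a median of 15 and a 90th percentile of 70.3 in control cells, and 12.5 and 50.6 in mutant cells. The 10% of cells with the highest values held 38.1% of these UMIs in the control and 36.8% in the mutant library. In mesenchyme-like cells the whole range was lower in the mutant library, with medians of 26.7 and 14.4 and 90th percentiles of 94.8 and 68.7. In branchial muscle-like cells the medians were level at 9.37 and 9.35, and the 90th percentiles were 32.6 and 44.97, so the higher level of the mutant library sat in the upper cells. In EC-like cells the median was higher (9.07 and 12.8) and the 90th percentile slightly lower (47.2 and 43.8).

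**Figure D5:**
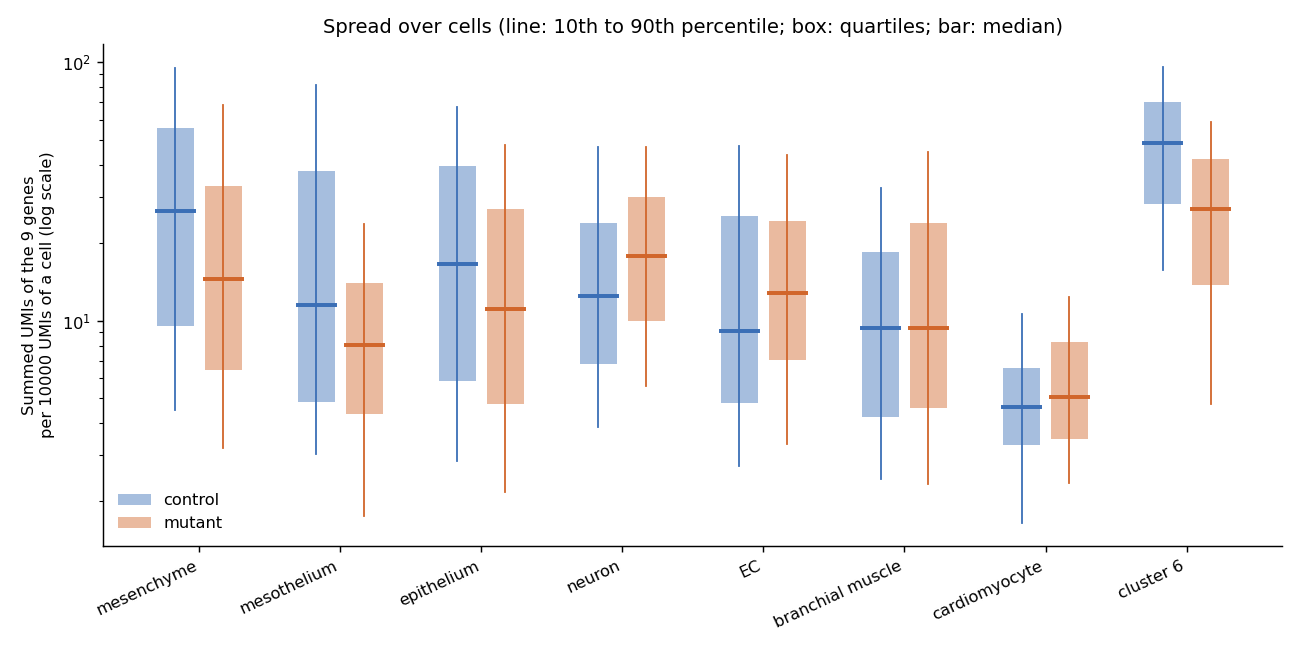
Summed UMIs of the 9 genes per 10000 UMIs of a cell (log scale) by class, with control in blue, mutant in orange, boxes for quartiles, a bar for the median and a line from the 10th to the 90th percentile. Control and mutant medians are level in branchial muscle-like cells, and the mutant box lies lower in mesenchyme-like cells (26.7 against 14.4) and in cluster 6 (48.9 against 27.0).

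For shares of cells with a UMI, cells were thinned to a common depth of 5000 UMIs, and 61 control and 173 mutant cells below it were set aside. A UMI of Fos was found in 54.9% of thinned control and 45.5% of thinned mutant cells, and in 74.0% of control cells before thinning. Egr1 was found in 53.4% and 34.5%, Atf3 in 13.2% and 17.2% and Jund in 75.6% and 77.3%. In EC-like cells Atf3 was found in 9.72% and 36.4%, and Fos in 36.1% and 42.4%, and since the share of Fos went against its summed level, no order is read from it. In mesenchyme-like cells Fosb was found in 56.1% and 34.6%. No class lacked Fos, the lowest share being 10.7% in mutant cardiomyocyte-like cells, so the part of free RNA in the lower shares was not tested.

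Depth, damage and cell cycle phase moved with the level, and their values stand here beside the pooled difference. Cells with 0 to 2% mitochondrial UMIs had 2812 CPM for the summed 9 genes in the control and 2310 in the mutant library, and cells with 6 to 10% had 1603 and 1275, so the level was lower in cells with more mitochondrial RNA in both libraries. The log2 ratio of mutant over control lay between -0.33 and -0.06 in the 4 ranges of mitochondrial share. When cells were split into 3 bins of equal size by their UMIs, the ratio was -0.02 in the deepest bin, -0.57 in the middle one and -0.50 in the shallowest. In cells called G1 it was -0.51 (3420 and 2408 CPM), against -0.00 in S and -0.06 in G2M. All these splits pool the classes, which differ in depth and phase. Branchial muscle-like cells (summed log2 ratio 0.44) had medians of 26389 and 22339 UMIs, and mesenchyme-like cells (-0.39) had 18575 and 14734.5. Called G1 were 281 of 889 control and 204 of 843 mutant branchial muscle-like cells, and 533 of 992 and 357 of 680 mesenchyme-like cells. The part of the mix of classes was not tested.

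Cells that the filter left out carried these genes as well. Those with 2000 or fewer genes and under 10% mitochondrial UMIs (1557 control and 1626 mutant cells) had 1943 and 1652 CPM for the summed 9 genes, a log2 ratio of -0.23. Cells with 10% or more mitochondrial UMIs (146 and 226) had 998 and 1750, a log2 ratio of 0.81 (interval 0.65 to 0.97), which is opposite in sign to the cells that were kept. Fosb was at 52.4 and 185 and Jun at 248.6 and 525 in these cells. Their median depth was 2552 and 1737 UMIs, and no class was assigned to them.

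From cell to cell the genes were expressed together to different degrees. In cells thinned to 5000 UMIs, Pearson's r of log(1 + UMIs) was taken within each of 14 sets (7 classes in 2 libraries) and averaged. Cells of a set share a library and a depth. Fos and Egr1 had the highest mean r (0.57, from 0.36 to 0.79 over the sets), then Fos and Fosb (0.56) and Fos and Junb (0.49). Egr2 and Jund, the scarcest gene and the one least tied to stimuli, had the lowest (0.10). Atf3 was at 0.34 with Fos, 0.28 with Jun and 0.17 with Jund, while Jun and Jund were at 0.33 with each other. These values were not adjusted for the small share of thinned cells with a UMI of Atf3.

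Outside the 9, the gene most like Fos and like Egr1 by this measure came from the same early response. For Fos it was Dusp1 (0.46), followed by Nr4a1 (0.42), Ccn1 (0.39), Id1 (0.35) and Zfp36 (0.32), among 7336 genes. For Egr1 it was Nr4a1 (0.41), for Jun Ccn1 (0.40) and for Atf3 Nr4a1 (0.30), a nuclear orphan receptor induced by many stimuli. By the level of the 14 class and library sums, over 7358 genes, the genes most like Fos were others: Zfp503 (0.95), Topors (0.94) and Tspan31 (0.91). For Jun they were Cachd1 (0.94), Topors (0.94) and Zfp503 (0.93), for Egr1 Gpsm2 (0.90), Fndc4 (0.88) and Boc (0.87), and for Atf3 Klk8, Zfp277 and Gorasp2 (0.89, 0.89 and 0.88). None of the top 3 by sums was among the top 5 over cells for the same gene.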

How the data were processed

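Cells were eYFP+ sorted and sequenced with the 10x 5′ v2 kit, 1 library per genotype. The authors deposited raw UMI count matrices with barcode and gene lists, made with Cell Ranger 7.1.0 (mm10) per the labels; the annotation release and intron setting are not given in the sources used here. Of 4505 control and 5357 mutant deposited cells (66935720 and 73915525 UMIs), the filter kept those between 2000 and 9000 genes with a mitochondrial share under 10%. Seurat 5.3.0 was used for integration and clusters (2000 variable genes, 30 components, resolution 0.3, 15 clusters), without the listed genes, and clusters were named from marker lists. Scrublet called 0 and 1 doublets, so as an alternative the 162 and 230 cells with the highest scores were removed.

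UMIs were summed per class and library. Levels carry exact Poisson, ratios conditional exact binomial and shares Clopper-Pearson 95% intervals, all for counting error only; UMI intervals allow for no variation between embryos. A gene needed at least 50 UMIs in a class for a call at 1.5-fold. All 9 members were named in every class; of each other list, the 2 genes with the largest and the 2 with the smallest ratio in EC-like cells were candidates for naming, and likeness was ranked for Fos, Jun, Egr1 and Atf3. The ratio and its interval were tested on simulated data. The members and lists were chosen with earlier results of these data known. Alternatives changed the mitochondrial limit, doublets, depth, weighting of cells, scaling (edgeR 4.0.16), clustering, integration, class rule, sex, phase, shared barcodes and the UMI minimum. R 4.3.3, Python 3.11.15 and scipy 1.17.1 were used.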

Additional observations from a re-analysis of the deposited data

Results flagged for a closer look

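For 6 of the genes, the log2 ratio of mutant over control was past 1.5-fold upward in one class and past it downward in another; the difference between the classes was not tested. Fos was at 0.91 in branchial muscle-like and -1.38 in mesothelium-like cells, Fosb at 0.71 and -1.57, and Jun at 0.62 and -0.84 in the same pair of classes. Egr2 was at 0.97 in neuron-like and -1.69 in epithelium-like cells, on few UMIs. Ier2 was at 0.66 in cardiomyocyte-like and -0.68 in epithelium-like cells, and Atf3 at 1.56 and -0.97 in that pair. The cardiomyocyte-like values rest on few control UMIs, 43 for Ier2 and 12 for Atf3.

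Cells left out of the comparisons for 10% or more mitochondrial UMIs had more of these transcripts in the mutant than in the control library. The log2 ratio was 0.81 for the summed UMIs, 1.82 for Fosb, 1.08 for Jun, 0.72 for Fos, 0.72 for Jund and 0.63 for Ier2. Heat shock genes were also higher there, at 3962 and 5710 CPM, and the part of damage in these values was not tested.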

How the results depend on the processing

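No paired analysis was possible because each genotype has 1 library. The median log2 ratio of the 9 genes kept its sign in every alternative tried in all cells and in mesenchyme-like, branchial muscle-like, epithelium-like and mesothelium-like cells, and turned in EC-like (to 0.0093 and 0.40), neuron-like and cardiomyocyte-like cells. The interval used for a median was the counting interval of the gene at the median. In mesothelium-like cells that gene was Egr2, with a wide interval of -2.22 to 0.29, and no alternative fell outside it. The medians there still ran from -1.40 with G1 cells to -0.57 with classes from marker counts. For the other classes and all cells, values outside the interval of the gene at the median were as follows. With cells thinned to 5000 UMIs: all cells -0.53, EC-like 0.0093, mesenchyme-like -0.55, neuron-like 0.15 and epithelium-like -0.60. With a mean over cells: all cells -0.55, EC-like -0.043, mesenchyme-like -0.58, neuron-like 0.16, epithelium-like -0.72 and cardiomyocyte-like 0.38, where Fos in cardiomyocyte-like cells reversed from -0.72 to 0.35. With female-like cells: all cells -0.086, EC-like 0.40, mesenchyme-like -0.43, neuron-like 0.38 and cardiomyocyte-like 0.24. That cardiomyocyte-like value rested on 11 control and 12 mutant cells, of 54 and 184 in the class. With G1 cells: all cells -0.74, mesenchyme-like -0.34, branchial muscle-like 0.32 and epithelium-like -0.84. The median ratio of genes gave -0.31 in all cells and -0.12 in EC-like cells, and the TMM factor -0.10 in EC-like and 0.12 in neuron-like cells. The TMM factor moved all log2 ratios by 0.12 in EC-like, 0.11 in neuron-like, 0.15 in cardiomyocyte-like and -0.12 in mesothelium-like cells. Genes with at least 100 UMIs gave -0.062 in EC-like cells, resolution 0.8 gave -0.40 in mesenchyme-like cells, classes from marker counts -0.58 in mesenchyme-like and 0.19 in neuron-like cells, and removal of the highest doublet scores 0.26 in cardiomyocyte-like cells. The largest cluster alone, an alternative chosen after seeing the data, gave -0.67 in mesenchyme-like and 0.11 in neuron-like cells. Of 930 values of single genes, 698 stayed within the counting interval, 231 moved beyond it and 1, with a main value past 1.5-fold, turned. Counting values short of the fold, 52 of the 930 had the other sign, such as Fos in EC-like cells, at -0.22 and 0.40 with female-like cells. The cause of these changes was not tested. Cardiomyocyte-like and mesothelium-like cells are few, and Egr2 rests on under 50 UMIs in both.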

Other observations

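In mesothelium-like cells the feedback genes of the ERK cascade stood on the other side of 0 from the AP-1 and EGR genes. Of 6 with at least 50 UMIs, 4 were higher past 1.5-fold in the mutant library and none was lower, against 21.1% and 12.9% of all genes, with a median log2 ratio of 1.39, while the median of the 9 genes was -0.88. Of 9 SRF, ternary complex and CREB factors 3 were higher and none lower, closer to the share of all genes, with a median of 0.52. In epithelium-like cells 7 of the 9 genes had intervals below 0. There 6 of 11 ERK feedback genes were lower and 1 was higher, against 9.27% and 8.47% of all genes. The median of these feedback genes was -0.63. Both classes are from single libraries, and the difference was not tested.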
